A study of Mus musculus with 2 samples.

Results

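The Egr family (Egr1, Egr2, Egr3 and Egr4) and the Nr4a family (Nr4a1, Nr4a2 and Nr4a3) were examined in the prefrontal cortex (PFC) of stressed and control mice. The 7 genes are all genes of both families, and the families were chosen with earlier results of these data known. They were read by 8 probes on 17 spots, among 37074 gene names on the array, of which 27100 gave a ratio. All 7 genes gave a ratio.

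One pool of PFC RNA from the control group (C group) and one from the chronic mild stress group (CMS group) were each hybridized to 1 one-color Agilent mouse array. Both groups were male mice of the strain labelled C57Bl/6 N sea, young adult at the start and with no genetic modification or drug given in the labels. The C group received ordinary care and lived in groups, whereas the CMS group was housed singly and met a repeated weekly schedule of mild stressors such as water deprivation, overnight light, a wet or tilted cage, restraint, swimming and shock, and the tissue was taken on the day after the last stressor. Stress and single housing therefore cannot be told apart. The methods also assign the mice of both groups used for molecular work to a tail suspension test. Whether all pooled mice met it, and how long before the tissue was taken, is not stated. The deposited design gives 7 mice per pool, while the methods give a larger number of mice for arrays and PCR together. Since each group has 1 array, the spread among mice is unknown and nothing could be tested, and each difference below is one between 2 pools.

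Egr proteins are zinc finger transcription factors and Nr4a proteins are orphan nuclear receptors, which act without a known hormone that must bind them. Their genes are immediate early genes. In neurons, calcium entry and the ERK and cAMP pathways activate factors already bound at their promoters, SRF at CArG boxes and CREB at cAMP response elements (CRE), and the messenger RNA rises within minutes of activity and decays soon after. They are widely used as a record of recent neuronal activity, and Egr1 and the Nr4a genes take part in memory formation.

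The 250 bases before annotated RefSeq transcript starts (GRCm38.p6) were searched on both strands for the sites through which such genes are known to be induced. Windows were found for 5 of the 7 members, 9 windows in all, and Egr1 and Egr3 had none in the table used. Egr2 has 5 of the 9 windows, several of which overlap. The CRE core TGACG, or CGTCA on the other strand, was in 7 of the 9 windows, at least 1 of each of the 5 members, and in 17.8% of 32851 windows of all genes. The whole CRE, TGACGTCA, was in 0 of the 9 and in 1.55% of all windows. A CArG box was in 4 of the 9, all of them windows of Egr2, and in 1.47% of all windows. These 4 are not separate sites: overlapping windows share the box CCATATATGG, and another window holds the box CCTTTTTTGG. The site that Egr proteins bind, GCGNGGGCG, was in 2 of the 9, those of Nr4a1 and Nr4a2, and in 4.70% of all windows, and the site that Nr4a proteins bind as monomers, AAAGGTCA, was in 0 of the 9 and in 1.34% of all windows. A match is a description of these letters and not of binding. The windows of the 2 bright Nr4a genes are shown because each holds 4 CRE cores and an Egr site. That of Egr4 is shown because, of the sites searched, it holds the CRE core alone, as does that of Nr4a3. For Egr2 the 30 bases around the CArG box CCATATATGG are shown. Capitals mark the CRE core, the Egr site and the CArG box. The windows are Nr4a1 at chr15:101266596-101266845 on the plus strand, Nr4a2 at chr2:57124004-57124253 on the minus strand and Egr4 at chr6:85513590-85513839 on the minus strand, and the Egr2 stretch is chr10:67537787-67537816 on the plus strand.
Nr4a1: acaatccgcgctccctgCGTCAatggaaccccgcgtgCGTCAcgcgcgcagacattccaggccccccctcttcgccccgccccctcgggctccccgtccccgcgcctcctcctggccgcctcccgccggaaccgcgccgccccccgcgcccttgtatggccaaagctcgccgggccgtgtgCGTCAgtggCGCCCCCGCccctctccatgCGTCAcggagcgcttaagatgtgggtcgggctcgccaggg
Nr4a2: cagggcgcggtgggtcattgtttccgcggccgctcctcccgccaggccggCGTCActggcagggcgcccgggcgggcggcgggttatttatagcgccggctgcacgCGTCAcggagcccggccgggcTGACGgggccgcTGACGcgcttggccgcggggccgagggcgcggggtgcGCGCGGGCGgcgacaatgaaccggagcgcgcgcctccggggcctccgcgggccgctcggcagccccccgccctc
Egr4: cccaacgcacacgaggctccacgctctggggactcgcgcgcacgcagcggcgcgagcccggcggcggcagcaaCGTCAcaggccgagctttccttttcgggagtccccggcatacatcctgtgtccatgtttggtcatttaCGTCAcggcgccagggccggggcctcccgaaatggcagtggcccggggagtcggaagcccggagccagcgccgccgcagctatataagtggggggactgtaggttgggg
Egr2: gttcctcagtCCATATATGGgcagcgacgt
In Nr4a1 the CRE cores lay at -233, -213, -69 and -40 from the start and the Egr site at -60. In Nr4a2 the cores lay at -200, -144, -123 and -111 and the Egr site at -74. In Egr4 the cores lay at -177 and -109. The Nr4a3 window, not printed, held 4 cores.

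Most Egr and Nr4a probes gave less signal in the CMS pool than in the C pool. Of the 7 genes, 2 fell below 0.5 times their C level, Egr2 and Nr4a1, and 0 rose above 2 times. Over all 27100 gene names, 0.565% were below 0.5 times and 1.96% were above 2 times. At a log2 ratio of CMS over C of -0.5 or lower there were 5 of the 7 genes, Egr1, Egr2, Egr4, Nr4a1 and Nr4a2, against 3.12% of all gene names. This limit was chosen after the values were seen, so that count describes these data and tests nothing. The median log2 ratio of the 7 genes was -0.73, beside a median of -0.03 over all gene names, whose quartiles were -0.13 and 0.07. Signals are the processed intensities of the scanner software scaled to a mean of 2500 on each array. The error given with a signal is that of the software's error model, it covers the measurement on 1 array and not the mice, and log2 ratios carry the combined error of both arrays.

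**Figure D1:**
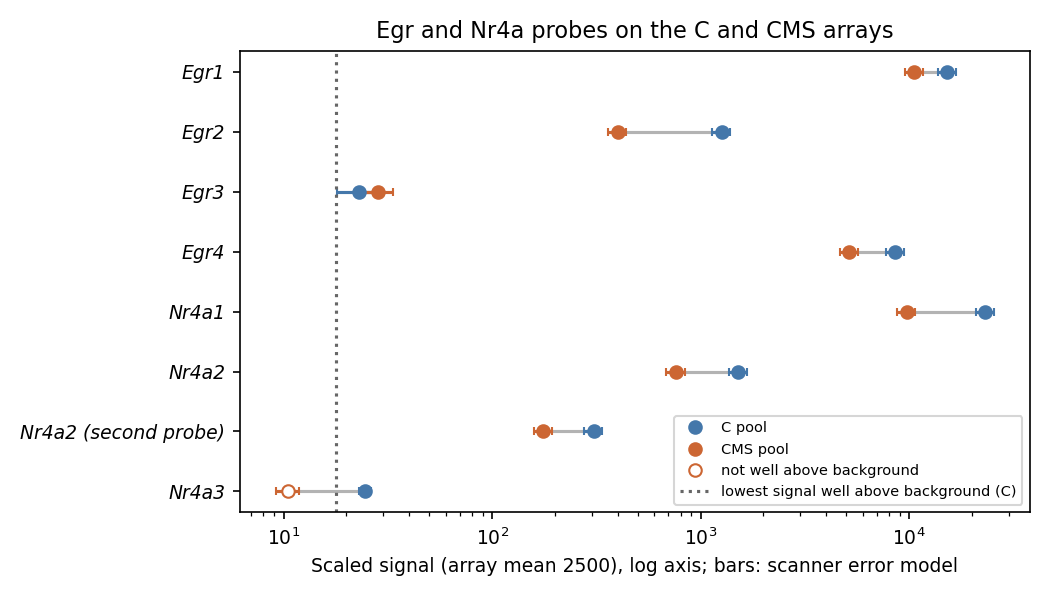
Scaled signal of each Egr and Nr4a probe in the C pool and the CMS pool, on a log axis, with bars for the error of the scanner's error model. The CMS point lies left of the C point for all probes but that of Egr3, and the Nr4a3 probe was not well above background in the CMS pool.

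Among the Egr genes, Egr2 showed the largest difference. Egr2, known for its roles in hindbrain patterning and in myelination by Schwann cells, had a scaled signal of 1258 ± 126 for C against 399.9 ± 40.3 for CMS. Its log2 ratio was -1.65 ± 0.20, a level 3.15-fold lower in the CMS pool. Only 65 gene names, 0.240% of those with a ratio, had a lower ratio.

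Egr1, the member most used as an activity marker, showed a smaller difference. Its scaled signal was 15239 ± 1524 for C against 10565 ± 1056 for CMS. The log2 ratio was -0.53 ± 0.20, a level 1.44-fold lower, and 2.75% of gene names had a lower ratio. Egr4 had a scaled signal of 8557 ± 856 for C against 5151 ± 515 for CMS. Its log2 ratio was -0.73 ± 0.20, a level 1.66-fold lower, with 1.25% of gene names lower. Neither Egr1 nor Egr4 passed the 2-fold limit.

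Egr3, which is required for the development of muscle spindles, could not be read with any precision. Its probe gave 23.0 ± 5.05 for C against 28.3 ± 5.23 for CMS, which is 1.30 and 1.61 times the lowest signal well above background on the respective array. Its log2 ratio was 0.30 ± 0.41, so that a direction was not detectable. Egr3 was the only member with a ratio above 0.

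Among the Nr4a genes, Nr4a1 fell past the 2-fold limit. Nr4a1, also called Nur77, had a scaled signal of 23144 ± 2314 for C against 9723 ± 972 for CMS. Its log2 ratio was -1.25 ± 0.20, a level 2.38-fold lower, and 103 gene names, 0.380%, had a lower ratio.

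Nr4a2, or Nurr1, is needed for the midbrain dopamine neurons and is also expressed in deep cortical layers. It had 2 probes. The probe of Nr4a2 used for the counts gave 1512 ± 151 for C against 760.3 ± 76.2 for CMS, a log2 ratio of -0.99 ± 0.20. This ratio, 0.503, lay just outside the 2-fold limit. The second Nr4a2 probe gave 306.7 ± 31.0 and 176.1 ± 18.1, a log2 ratio of -0.80 ± 0.21. Both probes were thus lower in the CMS pool, and they differed by less than their errors.

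Nr4a3, or Nor-1, was dim, but its probe was printed on 10 spots of each array. The scaled signal of these spots ranged from 18.9 to 29.5 in the C pool, with a median of 24.9 and a mean of 24.6 ± 3.44 (SD over spots). In the CMS pool it ranged from 6.43 to 19.2, with a median of 9.89 and a mean of 10.5 ± 3.89. All 10 spots were lower in the CMS pool, by spot log2 ratios of -1.85 to -0.51, while the highest CMS spot overlapped the lowest C spot. The software called 8 of the 10 spots well above background on the C array and 0 on the CMS array. Set against the lowest signal well above background on the CMS array, 17.6, Nr4a3 was at least 1.40-fold lower in the CMS pool, a bound of -0.48 on the log2 scale, beside a measured log2 ratio of -1.23. Spots of 1 array share the same RNA and are not replicates of the group.

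**Figure D2:**
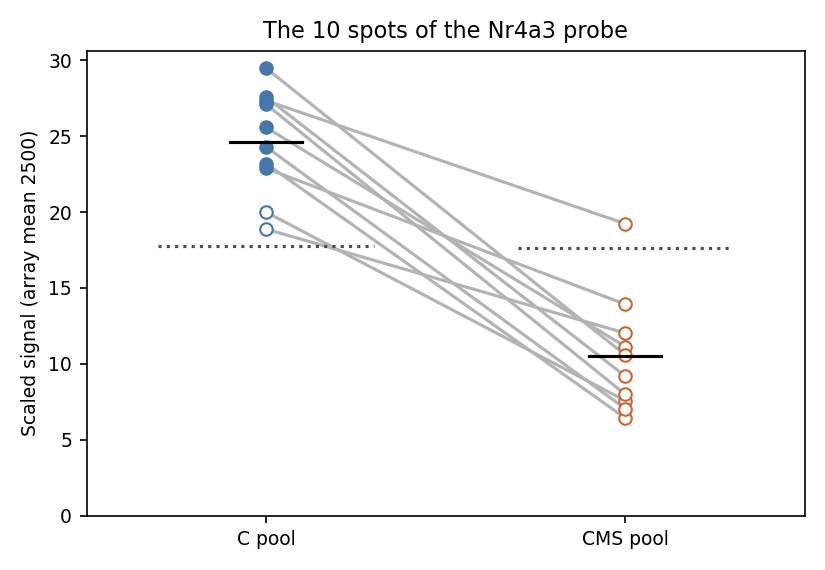
Scaled signal of the 10 spots of the Nr4a3 probe on the C and CMS arrays, with lines joining the same spot position, black bars at the means and dotted lines at the lowest signal well above background (17.8 and 17.6). Open circles were not well above background, and all 10 spots lie lower in the CMS pool.

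The members differed among themselves. The 5 members with a scaled C signal above 100 form 10 pairs, and in 4 of these the log2 ratios differed by more than 2 combined errors of the error model. These were Egr2 against Egr1, with log2 ratios 1.13 apart and a combined error of 0.29, Egr2 against Egr4, Egr2 against Nr4a2, and Nr4a1 against Egr1. Nr4a1 and Nr4a2 differed by -0.26 with an error of 0.29, within that limit. By family, the median log2 ratio was -0.63 for the 4 Egr genes and -0.99 for the 3 Nr4a genes, and 1 gene of each family was below 0.5 times. The Egr median includes Egr3, whose direction was not detectable, and the Nr4a median includes the bound of Nr4a3. Over genes well above background on both arrays the medians were -0.63 and -1.12. With so few genes, a difference between the families was not tested.

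**Figure D3:**
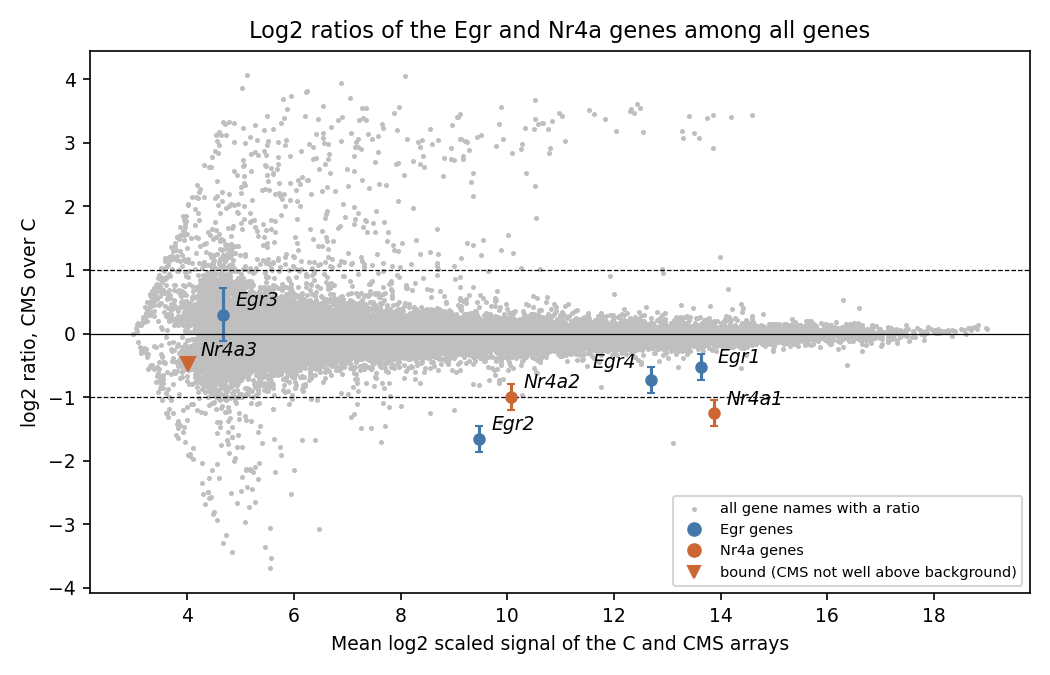
Log2 ratio of CMS over C against the mean log2 scaled signal for all 27100 gene names with a ratio (grey), with the Egr genes in blue and the Nr4a genes in orange. Bars are the error of the error model, the triangle is a bound, and dashed lines mark 2-fold. Egr1, Egr2, Egr4, Nr4a1 and Nr4a2 lie below the bulk of genes of like signal, while Egr3 and Nr4a3 lie in the dim range where ratios scatter most.

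Repeated spots of bright probes scattered little. The 5 bright members had 1 spot per probe, so this scatter was not measured on them, and it does not cover the mice. Spots of 1 probe gave log2 ratios with an SD of 0.082 where the scaled signal was above 100 and 0.26 where it was not. Of 12629 genes with a RefSeq mRNA accession, a C signal above 100 and signal well above background on both arrays, 85, or 0.673%, were at a log2 ratio of -0.5 or lower and 14, or 0.111%, were below 0.5 times. All 5 bright members were among the 85, and Egr2 and Nr4a1 were among the 14. The limit of -0.5 was chosen after the values were seen. Among the 15040 such genes with no limit on the C signal, 19 were below 0.5 times. Of those 19, 2 were members and 5 others stood in the lists of activity-induced genes described next. Those lists were drawn up with earlier results of these data known, so the overlap is a description only.

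The 10 lowest log2 ratios among these 15040 genes were those of Gm20736 (-2.52), Otogl (-1.90), Arc (-1.72), Ccn1 (-1.71), Spns3 (-1.67), Egr2 (-1.65), Arid5b (-1.55), Syt10 (-1.46), Fos (-1.39) and Frmd7 (-1.37). Arc, Ccn1, Egr2 and Fos among them are activity-induced genes. Among the others, Syt10, a synaptotagmin gene, had a scaled signal of 348.4 for C against 126.6 for CMS. Gm20736, Otogl, Spns3, Arid5b and Frmd7 had CMS signals of only 22.8 to 39.6. The lowest signal well above background on that array was 17.6, so their ratios are less precise. The 5 genes nearest to the median of the members, by the absolute difference of log2 ratios over the 2 arrays, were Lbhd2 (-0.73), Cox7b2 (-0.72), Lrmp (-0.72), Map3k19 (-0.74) and Nfkbiz (-0.72). All of these but Lbhd2 had C signals below 100, where spots of 1 probe scattered with an SD of 0.26. That scatter is larger than the differences used for the ranking. Likeness over 2 arrays says nothing of shared control.

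The AP-1 family, whose Fos and Jun proteins pair to bind DNA and whose genes are induced by the same kind of stimulus, had the list median nearest to that of the members. Of its 7 genes, 6 gave a ratio, 2 fell below 0.5 times, 0 rose above 2 times and 4 were at -0.5 or lower, with a median log2 ratio of -0.64. The Fos probe was printed on 10 spots, which ranged from 1432 to 1585 in the C pool and from 529.1 to 614.7 in the CMS pool. The spot ranges of C and CMS did not overlap, and the log2 ratio of Fos was -1.39, with an SD of 0.077 over spots. As for Nr4a3, these spots share the RNA of their pool and are not replicates of the group. Junb fell from 123.9 to 60.2, a log2 ratio of -1.04. The log2 ratio was -0.79 for Fosb, -0.50 for Fosl2 (-0.24 by its second probe), -0.24 for Jun and -0.03 for Jund, the member of AP-1 that is expressed without stimulation. The remaining gene of the list was not well above background in either pool.

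Of 13 other activity-induced transcription factors, 0 passed the 2-fold limit in either direction and 5 were at -0.5 or lower, with a median log2 ratio of -0.37. The lowest were Csrnp1 (-0.99), Npas4 (-0.83), Klf2 (-0.80), Ier2 (-0.76) and Per1 (-0.67). Npas4, a factor that responds almost exclusively to calcium entry in neurons, had a scaled signal of 4605 for C against 2584 for CMS.

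Of 26 activity-induced effector and feedback genes, 3 fell below 0.5 times, 0 rose above 2 times and 10 were at -0.5 or lower, with a median of -0.29. Arc, a synaptic protein that controls AMPA receptor uptake and a known Egr target, fell from 15897 to 4838, a log2 ratio of -1.72. Ccn1, a secreted matrix protein, fell from 358.1 to 109.7 (-1.71), and Btg2, an antiproliferative gene, from 777.1 to 338.8 (-1.20). Dusp1, the phosphatase that switches off MAP kinases, was at -0.97. Other genes of the list lay near 0, among them the neurotrophin gene Bdnf at -0.02 and Homer1, a gene of postsynaptic scaffold proteins, at 0.16. The other Homer1 probes ranged from -0.10 to 0.08, and which transcripts of the gene each probe reads was not examined.

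The genes of the pathway that induces the members showed no such difference. Of 23 genes for SRF and its partners, CREB and its coactivators, the ERK cascade, Camk4 and Mef2 factors, 0 passed the 2-fold limit in either direction and 0 were at -0.5 or lower. Their median log2 ratio was -0.05, and they ranged from -0.29 for Srf to 0.32 for Rps6ka2, a kinase of the RSK family. Second probes gave -0.04 for Srf and, below that range, -0.34 for Elk3, an SRF partner whose probe used for the counts was at 0.08. Creb1, the gene of CREB, was at -0.09. These are messenger RNA levels, and phosphorylation, which carries the signal, was not measured.

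Of the 5 partners and corepressors, 0 passed the limit. Nab1 and Nab2, which bind Egr proteins and repress their activity, had log2 ratios of -0.20 and -0.24, and the retinoid X receptors that pair with Nr4a1 and Nr4a2 had ratios of 0.14 for Rxra, -0.13 for Rxrb and -0.19 for Rxrg. A second Nab2 probe gave -0.87, from 45.5 to 25.0, and a second Rxra probe gave -0.32, from 41.3 to 33.1. The probes of Nab2 thus differed in size and those of Rxra in sign. Both second probes were dim, as was the first Rxra probe (94.3 for C), in a range where spots of 1 probe scattered with an SD of 0.26. Whether the Rxra probes disagreed beyond that scatter was not tested.

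Of 10 known Egr targets, 9 gave a ratio, 1 fell below 0.5 times, Arc, and the median was -0.10. The next lowest were Prx, a myelin protein gene, at -0.38, Nab2 at -0.24, with its second probe at -0.87, and the neurotrophin receptor gene Ngfr at -0.18. The synapsin gene Syn1 was at -0.10 and the GABA receptor gene Gabra4 at -0.02. Of 9 known Nr4a targets, 8 gave a ratio, 0 fell below 0.5 times and 2 rose above 2 times, with a median of 0.06. The 2 that rose were Fbp1 (3.02) and G6pc (2.66), enzymes of glucose production that hepatocytes also express. Both lay within the range of the hepatocyte markers described below, whose median was 3.15, and a link of these 2 ratios to Nr4a was not tested. Th, tyrosine hydroxylase, was at 0.05 and the dopamine transporter gene Slc6a3 at -0.07. Of 13 other nuclear receptors of neurons, 0 passed the limit, with a range of -0.33 for Nr1d1 to 0.15 for Nr2f2 and a median of -0.03, and the glucocorticoid receptor gene Nr3c1 was at -0.03.

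**Figure D4:**
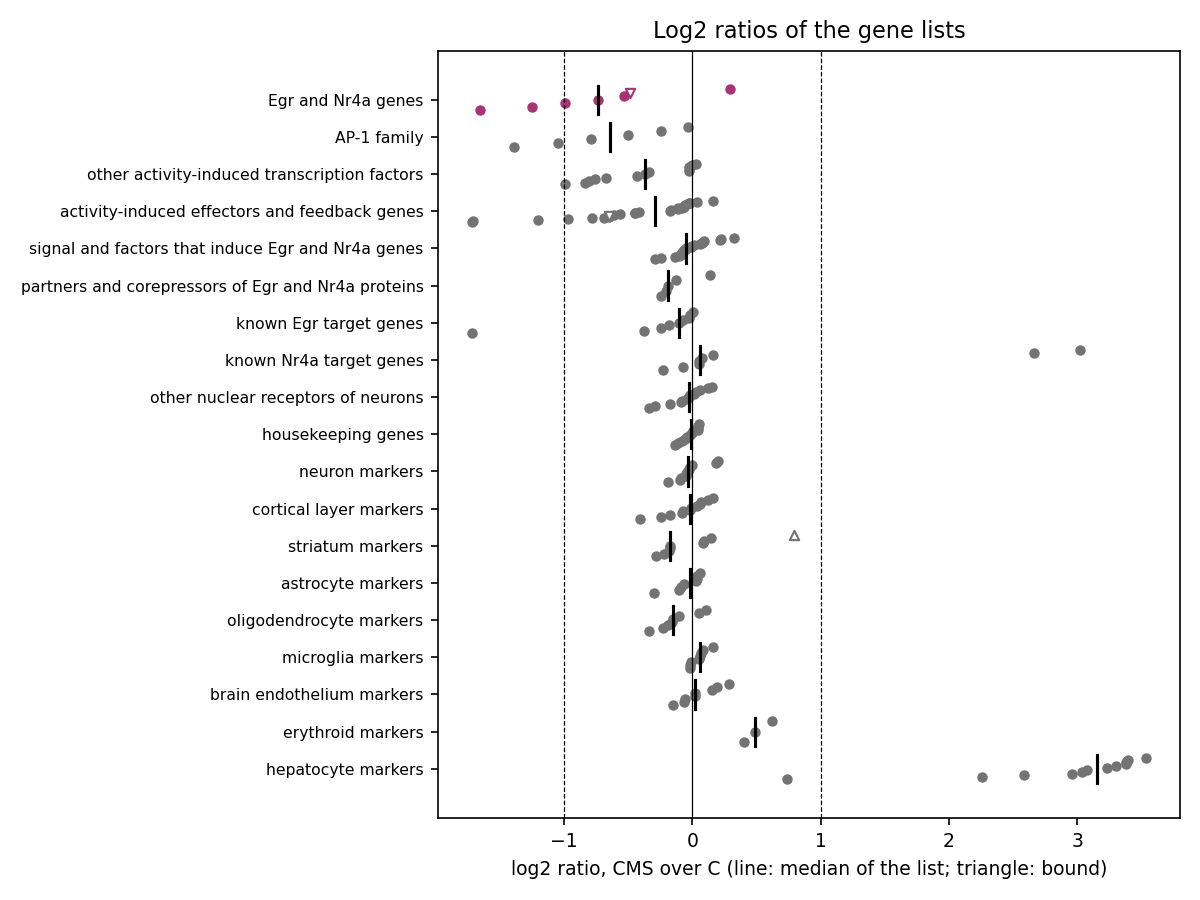
Log2 ratio of CMS over C for each gene of the lists, with a black line at the median of each list, open triangles for bounds and dashed lines at 2-fold. The Egr and Nr4a genes and the AP-1 family have the lowest medians (-0.73 and -0.64), and the hepatocyte markers the highest (3.15).

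The tissue label was checked against marker genes. All 12 neuron markers and all 12 cortical layer markers were well above background in both pools, with median log2 ratios of -0.04 and -0.01, and the summed signal of the neuron markers was 284136 for C against 278883 for CMS. The medians were -0.02 for astrocytes, -0.15 for oligodendrocytes, 0.06 for microglia, 0.02 for brain endothelium and -0.17 for striatum, whose 9 markers summed to 26630 for C against 24392 for CMS. Housekeeping genes had a median of -0.01, and Gapdh was at 0.04. In bulk RNA, fewer cells of a type and less RNA per cell cannot be told apart.

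Markers of hepatocytes, which the cortex does not hold, were higher in the CMS pool. All 12 hepatocyte markers were well above background in both pools, 11 of them were more than 2 times higher in the CMS pool, and their summed signal was 9960 for C against 89000 for CMS, a median log2 ratio of 3.15. The albumin gene Alb gave 1509 for C against 17486 for CMS. Of the erythroid markers, 3 of the 6 on the array gave a ratio, with a median of 0.49, and the other 3 were not well above background in either pool. The part of these markers in the Egr and Nr4a values was not tested.

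Egr1, Egr2, Egr4, Nr4a1, Nr4a2 and Nr4a3 stayed below 0 under each alternative processing that gave them a value. Egr3, whose direction was not detectable, ranged from 0.02 under normexp to 0.32. The 2-fold call of Nr4a2 depended on the setting, with a log2 ratio of -1.02 after scaling to the median and -1.16 without scaling. Nr4a3 passed the limit only where its measured signal stood without a bound or filter, at -1.23.

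**Figure D5:**
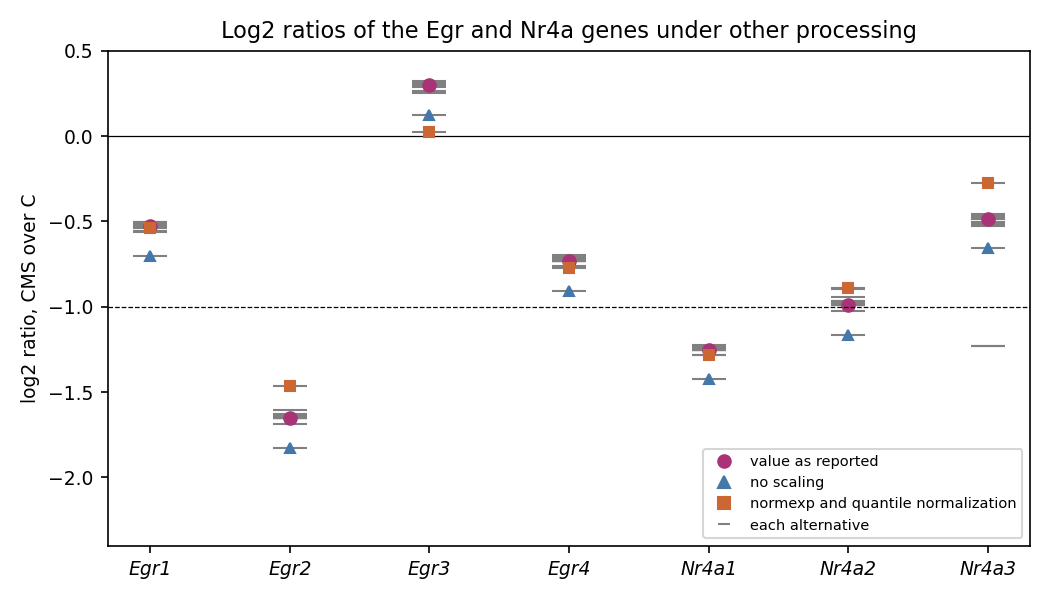
Log2 ratio of CMS over C of each Egr and Nr4a gene as reported (circles) and under each alternative processing (grey dashes), with no scaling and normexp marked, and a dashed line at 2-fold. Egr2 and Nr4a1 lie below the dashed line in every setting, and Nr4a2 lies on both sides of it.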

How the data were processed

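The authors deposited, for each array, the processed signal intensities of Agilent Feature Extraction 10.10.1.1 (named in the submitters' processing notes) on a linear scale, background-subtracted and spatially detrended, with the software's error and other columns of flags (well above background, outlier, saturated). A further deposited table holds the same intensities, each array multiplied by its own factor. From the processed intensities, control and outlier spots were left out, spots of 1 probe were averaged, arrays were scaled to a mean of 2500, and log2 ratios of CMS over C were taken. A probe not well above background (under 0.5 of its spots) on 1 array was set to the lowest signal well above background there, or to its own signal if that was higher, and its ratio is a bound; probes dim on both arrays received none. The brightest probe stands for a gene. Calls were ratios below 0.5 or above 2. Of 59305 spots, 65.2% (C) and 65.9% (CMS) were well above background, and 0 were saturated. The number of arrays limits the precision, and no leave-one-out analysis, test or batch term could be had.

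Accessions were named through the RefSeq gene table, and no gene coordinates of it were used. The members, the gene lists and the second limit of -0.5 were chosen with earlier results of these data known. Named genes are all members, up to 6 genes per list by size of the ratio, past the 2-fold limit or not, other list genes whose role is explained, Gapdh, the 10 lowest ratios and the 5 nearest to the members' median. The calculation of calls was checked on simulated arrays with known changes, which is no test between the groups. Alternatives were other scalings, quantile, loess and local centring, normexp with an offset of 50 (on median spot intensities), the deposited table, other treatments of dim and outlier spots, and the mean of all probes. Calculations used Python 3.11.15, numpy 2.4.6, pandas 2.3.3, statsmodels 0.14.6, R 4.3.3 and limma 3.58.1.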

Additional observations from a re-analysis of the deposited data

How the results depend on the processing

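No paired analysis was possible because each group is 1 array, and for the same reason no array could be left out. Of 104 values of single members under the alternatives, 92 moved by less than 0.13 and 12 by more (0.13 is how far log2 ratios of like spots scattered, as an SD, over 342 bright and dim probes), 7 of them without scaling, 3 under normexp, and 1 each with no bound and with no filter. Without scaling the median of all genes went from -0.03 to -0.20. The median of the 7 members, -0.73, ranged from -0.99 to -0.70 over 15 alternatives: it was -0.91 without scaling, -0.99 with no bound for dim probes and with no filter, and -0.86 over the probes that both arrays measured well above background, where Nr4a3 had no value. Under normexp, Egr2 was at -1.47, Nr4a3 at -0.28 and Egr3 at 0.02, from 0.30 as reported. Between 2 and 3 of the 7 genes were below 0.5 times and 5 or 6 were at -0.5 or lower in each alternative. The share of all genes at -0.5 or lower was not calculated for the alternatives, so the second count has no background there. The percentage of all genes below 0.5 times was 0.919 without scaling, 0.137 under normexp, 1.14 with no bound, 0.173 over probes well above background in both pools and 2.88 with no filter. Scaling to the E1A spike-in probes and the limit of -0.5 were chosen after seeing the data. Egr3 and Nr4a3 lay within 1.61 times the lowest signal well above background, so depth of signal limits both.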
